A study of Mus musculus with 6 samples.

Results

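Cells sorted from the mouse sublingual mucosa as CD11c-positive and CD206-negative (Fr1) were compared with cells that lacked CD11c and CD206 but carried F480 (Fr2). The comparison uses 4 of the 6 arrays of the series, chosen by their sample titles alone, with 2 arrays per fraction. The remaining fraction, F480-positive cells with high CD206 (Fr3, 2 arrays), entered no test here. All cells came from BALB/c mice whose mucosa had received FITC, a fluorescent contact sensitiser, 2 times, so no fraction was from untreated mice. Before sorting, dorsal tongue tissue was held for 30 min in collagenase with DNase. The 2 arrays of each fraction stem from separate experiments, and how many mice went into a sort is not stated in the labels.

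CD11c is the integrin chain encoded by Itgax and is carried by dendritic cells (DCs) and by some macrophages and lymphocytes. F480 is the surface receptor encoded by Adgre1, a marker of mouse macrophages that mouse eosinophils and some monocytes also carry. CD206 is the mannose receptor encoded by Mrc1, a marker of resident tissue macrophages. A gate on these 3 antigens can therefore hold several leukocyte types, and the groups of genes below are ordered by the cell types and functions that they are known for.

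RNA was amplified and read on 1-colour 60-base oligonucleotide arrays. A level here is the log2 signal of a probe relative to the 75th percentile of its array, so 0 is that percentile. On the Fr1 arrays 46.6% and 44.6% of spots were well above background, against 51.9% and 52.4% on the Fr2 arrays. In all, 19737 genes had a probe well above background on both arrays of Fr1 or on both of Fr2 and were tested with limma. Both Fr1 arrays lay on 1 slide and both Fr2 arrays on another, scanned separately, so the fraction and the slide cannot be told apart in any difference below. Replicate arrays correlated with r = 0.883 in Fr1 and 0.903 in Fr2 (Pearson's r over genes, not over independent samples), and arrays of different fractions with 0.828 to 0.853. Between the Fr1 replicates the difference followed the T content of the probe (r = 0.360 across genes), against 0.081 between the Fr2 replicates and −0.01 for the difference between the fractions.

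At an adjusted p under 0.05 (limma, Benjamini-Hochberg), 21 genes differed, 0.106% of those tested. Of these, 18 were higher in Fr2 (0.0912%) and 3 in Fr1 (0.0152%). At an unadjusted p under 0.05, 1670 genes were higher in Fr2 (8.46%) and 1054 in Fr1 (5.34%). Both Fr2 arrays lay above both Fr1 arrays for 4590 genes (23.3%), and the reverse held for 4474 (22.7%). The median difference over all genes tested was 0.02 (Fr1 minus Fr2). These percentages are the background against which each count below is set. That background varied with the mean level of a gene over the 4 arrays. Both Fr2 arrays were higher for 49.2% of genes under −2, 17.3% from −2 to 0, 29% from 2 to 4 and 34.9% over 4. Both Fr1 arrays were higher for 22.7%, 25.9%, 16.2% and 20.2% in the same order. The counts below were not matched for level. A gene could enter through the fraction in which it was bright, so counts and medians over the genes of a list describe that list and are no test of it.

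The 21 calls had large differences. Their standard errors lay between 0.56 and 0.73, and 17 had no probe above background in the lower fraction, 14 of the 18 in Fr2 and 3 of 3 in Fr1. For those the difference is given as a bound, the brighter mean against the lowest signal that counts as above background in the dimmer fraction. The number of calls depended on single arrays. It was 0 without Fr1 replicate 1 and 0 without Fr1 replicate 2, 370 without Fr2 replicate 1 and 206 without Fr2 replicate 2, while all 21 genes kept their direction and an unadjusted p under 0.05 in these 4 fits. With normexp background correction, which adds an offset that compresses dim signals, no gene was called (0; unadjusted p under 0.05 in 21 of 21) and the differences (Fr1 minus Fr2) were much smaller. They were then −5.19 for Muc5b, −3.02 for Chil3, −2.85 for Camp, −1.14 for Ltf, −0.62 for Crkl, 1.28 for Ccr9 and 0.66 for Olfr164. The bounds printed as "at least" belong to the main scale and do not hold under that setting. An exact permutation test of 2 arrays against 2 cannot go below p = 0.333, so the calls rest on the variance that limma pools across genes.

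**Figure D1:**
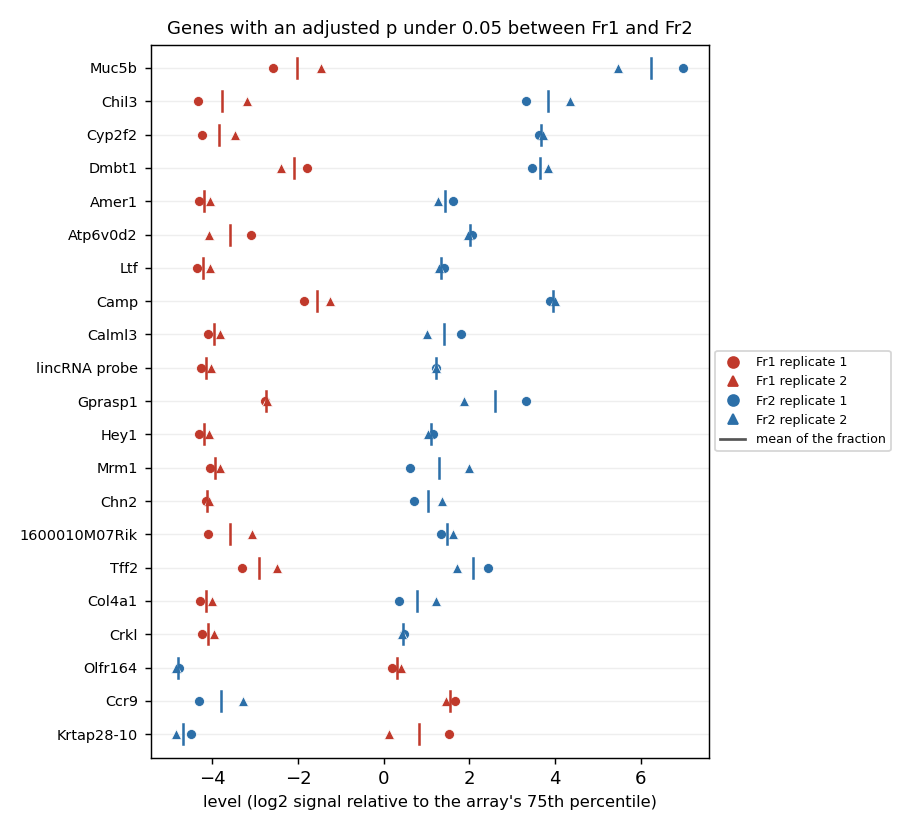
Level of the 21 genes with an adjusted p under 0.05 on each array of Fr1 (red) and Fr2 (blue), in log2 units relative to the array's 75th percentile; circles are replicate 1, triangles replicate 2 and vertical bars the mean of a fraction. The 18 genes at the top were higher in Fr2, from Muc5b to Crkl, and the 3 at the bottom, Olfr164, Ccr9 and Krtap28-10, in Fr1, with no overlap between the fractions.

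Because each value is the reading of an oligonucleotide, the first 30 bases of the probes behind the main calls and behind CD11c itself are shown, in the order in which the genes are described. Coordinates are those of the whole 60-base probe on mm9, as the files give them, and where a probe lies within its transcript is not given here. Muc5b and Itgax are shown with each probe that was above background on both arrays of a fraction.
Itgax, chr7:135294052-135294111, plus strand: tcccatctacttttgcaacgttggaattga
Itgax, chr7:135284029-135284088, plus strand: actcgagttaaaactcttggtctgaacaag
Itgax, chr7:135277352-135277411, plus strand: accacttcctcctgtaacttcctcttgaag
Muc5b, chr7:149058931-149058990, plus strand: ggggttgaagaggggtctgtgctcactcat
Muc5b, chr7:149058735-149058794, plus strand: tttggcctcattctctgtgagagcctgtgg
Camp, chr9:109749911-109749970, minus strand: acttgtacctcagccagagtagtaggcctg
Chil3, chr3:105950485-105950544, minus strand: tgaacatcttttgcttcctgtaaaaccacc
Ccr9, chr9:123690334-123690393, plus strand: caggcaagaggcacttgctgcaggttctcc

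The sort markers were read first, as a check of the labels. Itgax, which encodes CD11c, stood at 3.05 and 2.66 on the Fr1 arrays and at 3.10 and 1.53 on the Fr2 arrays. The fractions overlapped, and the difference of 0.54 ± 0.69 (SE; Fr1 minus Fr2, 2 arrays each) was not past the threshold (limma adjusted p = 0.775). The 3 Itgax probes listed above, in that order, gave differences of 0.54, 0.03 and −0.68. The transcript behind the antigen that defines the sort was therefore not separated between the fractions on these arrays. Adgre1, which encodes F480, stood at 4.83 and 4.70 in Fr1 and at 6.27 and 6.29 in Fr2, without overlap, a difference of 1.51 (Fr2 minus Fr1) at limma adjusted p = 0.298. Its level in Fr1 was above background on both arrays. Mrc1, which encodes CD206, was not above background in Fr1 (−3.75 and −3.19) and stood at 0.98 and 0.65 in Fr2, a fraction labelled CD206-negative. That is at least 6.71-fold higher in Fr2 at limma adjusted p = 0.0566. In Fr3, sorted for high CD206, Mrc1 stood at 4.10 and 3.01.

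**Figure D2:**
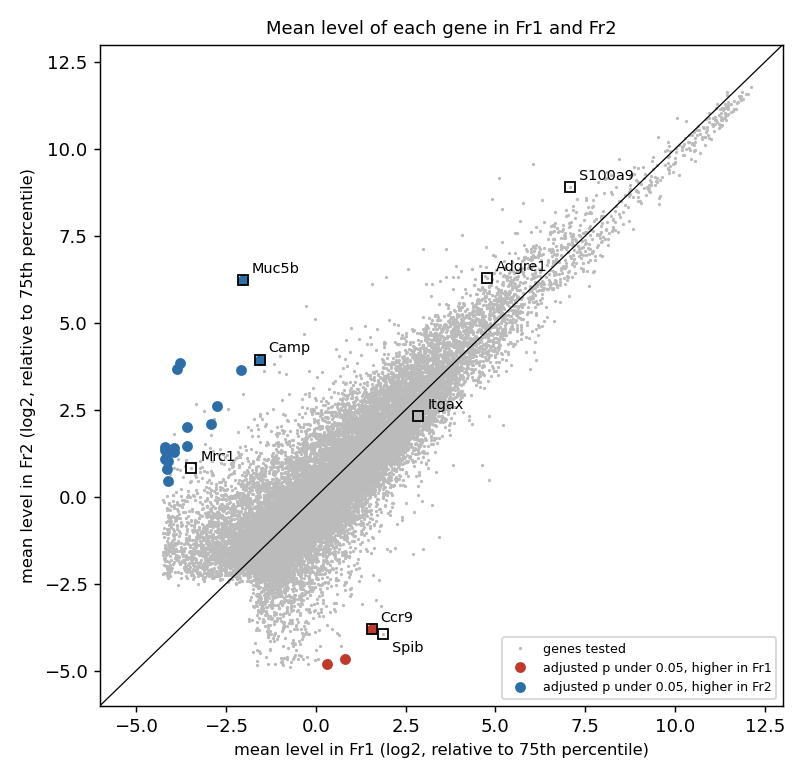
Mean level of each of the 19737 genes in Fr1 (horizontal) and Fr2 (vertical), both in log2 units relative to the array's 75th percentile, with the line of equal levels; filled circles mark the 21 called genes and open squares 8 named genes. Itgax lies near the line, Adgre1 and S100a9 above it, and most called genes lie where the lower fraction is near background.

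Secretory genes of mucous and salivary glands were among the largest differences towards Fr2. Muc5b, a gel-forming mucin of salivary and airway mucus, stood at −2.57 and −1.47 on the Fr1 arrays and at 7.0 and 5.48 on the Fr2 arrays. The difference was 8.26 ± 0.73 (SE, Fr2 minus Fr1) at limma adjusted p = 0.0265. Its other probe stood at −4.28 and −4.04 in Fr1, under the lowest level well above background, and at 0.12 and −0.28 in Fr2. Dmbt1, a secreted scavenger glycoprotein of saliva, stood at −1.80 and −2.39 in Fr1 and at 3.47 and 3.85 in Fr2, a difference of 5.75 ± 0.58 (limma adjusted p = 0.0316). Tff2, a trefoil peptide secreted with mucins, was not above background in Fr1 and stood at 2.45 and 1.73 in Fr2, at least 16.2-fold higher (limma adjusted p = 0.0448). In each of the 3 genes both Fr2 arrays lay far above both Fr1 arrays. In Fr1, Muc5b and Dmbt1 were above background on 1 array each. In bulk samples of sorted cells, fewer cells of a type and less RNA per cell cannot be told apart.

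Other secretory genes lay the same way without passing the threshold. Dcpp2, a demilune cell protein of the sublingual and parotid glands, stood at 0.69 and −1.21 in Fr1 and at 4.43 and 6.55 in Fr2, with limma adjusted p = 0.0611. Its relative Dcpp3 stood at 0.03 and −0.69 against 3.59 and 5.79 (0.0621). Gp2, a glycoprotein of secretory granules and of the epithelial cells that take up luminal antigen, was not above background in Fr1 and stood at 4.14 and 1.19 in Fr2 (0.0645). Of the 23 tested genes of the mucous and salivary list, out of 31 on the array, 2 were called higher in Fr2 and none in Fr1 (0). Both Fr2 arrays were higher for 11 of the 23, and both Fr1 arrays for 4. The list's median difference was −1.02 (Fr1 minus Fr2), −0.19 with genes above background on all 4 arrays, −0.30 with normexp, −2.23 without probes over 30% T and −1.63 without Fr2 replicate 2. The summed linear level of the list was 51.0 and 59.0 on the Fr1 arrays and 304 and 446 on the Fr2 arrays. On the Fr2 arrays these sums weigh the brightest genes most, among them Muc5b, Dcpp2 and Dcpp3. They are no measure of the remaining secretory genes. Dcpp2 and Dcpp3 are relatives, and whether their probes share signal was not tested. Muc19, a salivary mucin, lay towards Fr1, with 4.42 and 4.34 in Fr1 against 3.47 and 3.78 in Fr2 (limma adjusted p = 0.596), and 1 of its 2 kept probes had the opposite sign. The fitted difference of Klk1, a kallikrein, was 2.95 towards Fr1, and 0.61 to 3.77 over the alternatives. RNA of gland cells and RNA of leukocytes were not separated by these measurements, and the part of the former in any other difference was not tested. On the Fr3 arrays, which lay on the slide of Fr1, Muc5b stood at 3.65 and 3.38.

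Genes of neutrophil granules were likewise higher in Fr2. Camp, the precursor of the antimicrobial peptide cathelicidin, stood at −1.86 and −1.26 on the Fr1 arrays and at 3.89 and 4.0 on the Fr2 arrays. The difference was 5.5 ± 0.58 (limma adjusted p = 0.0316), with no overlap. Ltf, the iron-binding lactoferrin of the same granules, was not above background in Fr1 and stood at 1.4 and 1.29 in Fr2, at least 9.72-fold higher (limma adjusted p = 0.0316). Ngp, a neutrophilic granule protein, stood at −0.44 and −1.88 against 4.11 and 3.55, a difference of 4.99 that missed the threshold at limma adjusted p = 0.0566. Pglyrp1, a peptidoglycan recognition protein stored in granules, stood at 0.60 and 0.53 against 3.71 and 4.77 (0.0647). In 14 of the 20 tested genes of the granule list both Fr2 arrays were higher and in 0 both Fr1 arrays were, against 23.3% and 22.7% of all genes. The list's median difference was 2.34 (Fr2 minus Fr1), and 2 of its genes were called. With normexp the median was −0.94 as Fr1 minus Fr2. On both Fr3 arrays Camp was at or below −1.29.

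Cytosolic and surface genes of neutrophils gave 14 of 21 with both Fr2 arrays higher and 1 with both Fr1 arrays higher, with a median difference of 1.66 (Fr2 minus Fr1) and no call (0). As Fr1 minus Fr2 the median was −0.71 with normexp, −1.02 without Fr1 replicate 1 and −1.04 without Fr2 replicate 2. S100a8, which forms the calprotectin complex with S100a9, stood at 0.85 and 1.14 in Fr1 and at 4.60 and 5.14 in Fr2 (limma adjusted p = 0.0611). Retnlg, a resistin-like protein made by neutrophils, stood at 2.86 and 2.29 against 6.24 and 6.85 (0.0611). Cxcr2, the receptor for neutrophil-attracting chemokines, stood at 1.86 and 2.58 against 3.26 and 4.21 (0.347), and Cebpe, a transcription factor of late granulocyte development, at 0.66 and 1.43 against 2.82 and 3.60 (0.201). Csf3r, the receptor for granulocyte colony-stimulating factor, did not follow: its arrays overlapped at 7.29 and 7.72 in Fr1 against 7.44 and 7.08 in Fr2. Ly6g, a defining neutrophil surface marker, was above background on 1 Fr2 array (−0.11) and on no other array of either fraction.

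Cebpe was brighter on both Fr2 arrays, but whether it acts on the granule genes here was not tested. The promoters of the 3 granule genes with the largest differences are shown. They are the 250 bases before the annotated start, from RefSeq on GRCm38.p6, and capitals mark matches to TTGCNNAA on either strand, a form of the site of CCAAT/enhancer-binding proteins.
Ltf, chr9:111019042-111019291, plus strand: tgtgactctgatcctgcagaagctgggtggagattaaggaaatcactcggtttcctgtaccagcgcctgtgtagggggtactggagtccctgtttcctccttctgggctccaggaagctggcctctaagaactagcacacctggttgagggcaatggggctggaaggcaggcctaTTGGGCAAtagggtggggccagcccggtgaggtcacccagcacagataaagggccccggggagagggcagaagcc
Camp, chr9:109849457-109849706, minus strand: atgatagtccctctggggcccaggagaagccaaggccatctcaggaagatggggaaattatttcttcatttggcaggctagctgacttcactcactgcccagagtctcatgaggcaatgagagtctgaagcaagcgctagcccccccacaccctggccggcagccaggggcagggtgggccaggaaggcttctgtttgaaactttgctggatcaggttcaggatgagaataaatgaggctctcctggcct
Ngp, chr9:110419558-110419807, plus strand: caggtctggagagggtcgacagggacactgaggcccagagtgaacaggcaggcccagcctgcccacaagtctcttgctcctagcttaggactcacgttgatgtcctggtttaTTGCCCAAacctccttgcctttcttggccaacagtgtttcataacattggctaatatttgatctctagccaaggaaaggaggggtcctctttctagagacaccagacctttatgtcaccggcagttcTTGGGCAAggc

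Ltf had 1 match, Ngp 2 and Camp 0. Of the granule list, 16 tested genes had a promoter in the table and 5 held a match (31.2%), against 9.57% of all 32841 promoters of that length. The neutrophil surface list had 6 of 19 (31.6%), the eosinophil list 6 of 13 (46.2%), the monocyte list 4 of 21 (19%) and the plasmacytoid DC list, whose genes lay towards Fr1, 4 of 12 (33.3%). A core of the PU.1 site, GAGGAA on either strand, was found in 8 of the 16 granule promoters (50%) against 23.3% of all. It was in 11 of 19 neutrophil surface (57.9%), 5 of 13 eosinophil (38.5%), 8 of 21 monocyte (38.1%) and 1 of 12 plasmacytoid DC promoters (8.33%). A match is a description of the letters and not a binding site, and the motifs were chosen with the differences known. The reference of all promoters was not limited to tested genes, as the lists were, so the shares are not strictly comparable.

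Eosinophil genes lay towards Fr2 with no call. Rnase2a, an eosinophil-associated ribonuclease, stood at 0.03 and −1.99 in Fr1 and at 4.27 and 3.85 in Fr2, a difference of 5.05 ± 0.76 (limma adjusted p = 0.0611). Its relatives Ear1 (2.61 and 0.83 against 4.55 and 5.12), Ear2 (1.35 and −0.97 against 3.62 and 3.55) and Ear10 (0.60 and 1.95 against 4.07 and 4.09) did not overlap either. These ribonucleases are related and their probes may share signal, so they cannot be taken as separate observations. Siglecf, the lectin used to sort mouse eosinophils, stood at 2.98 and 3.45 against 5.31 and 6.24, and Prg2, the granule major basic protein, at 0.84 and 2.25 against 3.43 and 5.36. In Fr3, Rnase2a stood at 4.47 and 3.84, as high as in Fr2, while Ear2 stood at 1.23 and 1.43. Siglecf stood there at −0.27 and −0.32, and Prg2 was not above background, so Rnase2a did not follow these 2 genes across the 3 fractions. Ccr3, the eotaxin receptor, and Epx, eosinophil peroxidase, overlapped between the fractions. In 10 of 15 tested genes both Fr2 arrays were higher and in 0 both Fr1 arrays were, and the summed level of the list was 33.9 and 41.0 in Fr1 against 144 and 244 in Fr2. The list's median difference was 2.15 (Fr2 minus Fr1). As Fr1 minus Fr2 it was −0.92 with normexp and −1.14 without Fr2 replicate 2.

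Monocyte genes gave 18 of 25 with both Fr2 arrays higher and 2 with both Fr1 arrays higher, with 1 call and a median difference of 1.62 (Fr2 minus Fr1). Chil3, a chitinase-like protein of monocytes, neutrophil precursors and alternatively activated macrophages, was not above background in Fr1 (−4.34 and −3.19) and stood at 3.31 and 4.35 in Fr2. That is at least 54.5-fold higher at limma adjusted p = 0.0265. Ifitm6, a myeloid interferon-induced membrane protein, was not above background in Fr1 and stood at 1.83 and 0.30 in Fr2, at least 8.0-fold higher (0.0611). Hp, the haemoglobin scavenger haptoglobin, stood at 2.01 and 2.05 against 4.50 and 5.66, and Lyz2, lysozyme of macrophages and granulocytes, at 3.29 and 3.17 against 6.39 and 5.87. Neither passed the threshold (limma adjusted p = 0.103 and 0.0924). Ccr2, which draws monocytes from the blood, stood at 0.28 and 0.26 against 2.85 and 1.71. The list shares Hp and Lyz2 with the neutrophil granule list.

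Macrophage genes were less separated, and none was called (0 of 20). Both Fr2 arrays were higher for 11 of 20 core macrophage genes and both Fr1 arrays for 0, with a median difference of 0.95 (Fr2 minus Fr1). As Fr1 minus Fr2 it was −0.58 without Fr2 replicate 1 and −1.53 without Fr2 replicate 2. Trem2, a lipid-sensing receptor of tissue macrophages, stood at 2.27 and 1.54 against 4.80 and 4.10, and Camk1, a calcium-dependent kinase, was not above background in Fr1 and stood at 0.37 and 1.04 in Fr2. Csf1r, the receptor for the macrophage growth factor, overlapped at 5.80 and 5.65 against 7.55 and 5.63, as did Fcgr1, the high-affinity Fc receptor CD64, at −1.31 and 0.68 against 1.65 and 0.41. Mertk, an apoptotic cell receptor that marks macrophages, was not above background on any array of either fraction. C1qb, a chain of complement C1q that marks macrophages but is counted in the complement list and not among these 20, lay the other way, at 2.28 and 3.07 in Fr1 against 1.82 and 0.72 in Fr2. The other C1q chains did not follow C1qb. C1qc lay towards Fr2, at 2.35 and 2.29 against 3.21 and 2.51, and C1qa overlapped, at −0.14 and −0.81 against 0.51 and −3.11.

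Genes known from CD206-high resident macrophages were also towards Fr2, in 9 of 21 against 2 of 21 towards Fr1. Their median difference was −0.93 (Fr1 minus Fr2), −0.12 with normexp, −0.48 with genes above background on all 4 arrays, −0.60 without Fr1 replicate 2 and −0.56 without Fr2 replicate 1. Pf4, platelet factor 4, stood at −1.14 and −1.61 in Fr1, 3.10 and 1.11 in Fr2 and 6.08 and 5.30 in Fr3. F13a1, a coagulation transglutaminase of resident macrophages, stood at 2.14 and 2.21, 5.30 and 4.63, and 8.51 and 7.78 in the same order. For both, the Fr2 arrays lay between the Fr1 and the Fr3 arrays. Cd163, the receptor for haptoglobin-bound haemoglobin, followed that order too, at 2.97 and 1.59, 5.72 and 4.16, and 7.37 and 7.02. Between Fr1 and Fr2 their limma adjusted p-values were 0.115, 0.104 and 0.201.

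Metabolic genes lay together towards Fr2. Of 44 tested subunits of the mitochondrial respiratory chain, 32 had both Fr2 arrays higher, 2 had both Fr1 arrays higher and 10 overlapped, with a median difference of 1.18 (Fr2 minus Fr1) and no call (0). At an unadjusted p under 0.05, 13 were higher in Fr2 and 1 in Fr1. Ndufb10, a complex I subunit, stood at −0.63 and −1.60 in Fr1 and at 0.69 and 2.40 in Fr2, and Ndufa4, first described in complex I, at −0.59 and −1.05 against 1.19 and 1.96. Atp5o, of the ATP synthase stalk, stood at 1.22 and 1.47 against 3.31 and 3.20, a difference of 1.92 ± 0.56 (limma adjusted p = 0.204). Across 12 alternative settings the list's median, as Fr1 minus Fr2, lay between −1.45 and −0.75.

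The median differences of glycolysis and hypoxia genes (14 of 27 towards Fr2, 3 towards Fr1) and of lipid handling genes (13 of 21 and 1) were 0.89 and 0.81 (Fr2 minus Fr1). The lipid median was −0.45 (Fr1 minus Fr2) without probes over 30% T and −0.53 without Fr2 replicate 1. Ero1a, an oxidase of the endoplasmic reticulum induced by low oxygen, stood at −2.23 and 0.36 against 2.74 and 2.82. Fabp4, a fatty acid carrier of adipocytes, endothelium and macrophages, stood at 0.64 and 0.87 against 3.34 and 4.07 (limma adjusted p = 0.0953), and Abcg1, a cholesterol exporter, at 0.65 and 0.99 against 3.57 and 2.89. Lysosomal genes gave 13 of 33 towards Fr2 and 2 towards Fr1, with a median of 0.38 (Fr2 minus Fr1) that lay, as Fr1 minus Fr2, between −0.88 without Fr2 replicate 2 and −0.21 without Fr2 replicate 1, with −0.68 without Fr1 replicate 1. Atp6v0d2, a subunit of the proton pump that macrophages and osteoclasts use, was called: it was not above background in Fr1 (−3.10 and −4.09) and stood at 2.06 and 1.98 in Fr2, at least 15.5-fold higher (limma adjusted p = 0.0326). Of the 33 lysosomal genes, 18 overlapped between the fractions. Over all genes tested, 23.3% did not overlap and were higher in Fr2, and 22.7% did not overlap and were higher in Fr1.

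Immediate early genes, which are also induced by tissue digestion, gave 16 of 32 towards Fr2 and 2 towards Fr1, with a median difference of 0.89 (Fr2 minus Fr1). As Fr1 minus Fr2 it was −0.40 without probes over 30% T and −0.44 without Fr2 replicate 1. Klf2, a transcription factor of quiescent leukocytes and endothelium, stood at 3.83 and 3.43 against 6.09 and 6.53 (limma adjusted p = 0.112). Fos, the classic immediate early gene, stood at 2.47 and 2.37 against 4.95 and 3.83 (0.233), and Btg2 at 0.65 and 0.12 against 3.19 and 3.00 (0.107). The digestion time was the same for both fractions by the labels, and the part of handling in these values was not tested.

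**Figure D3:**
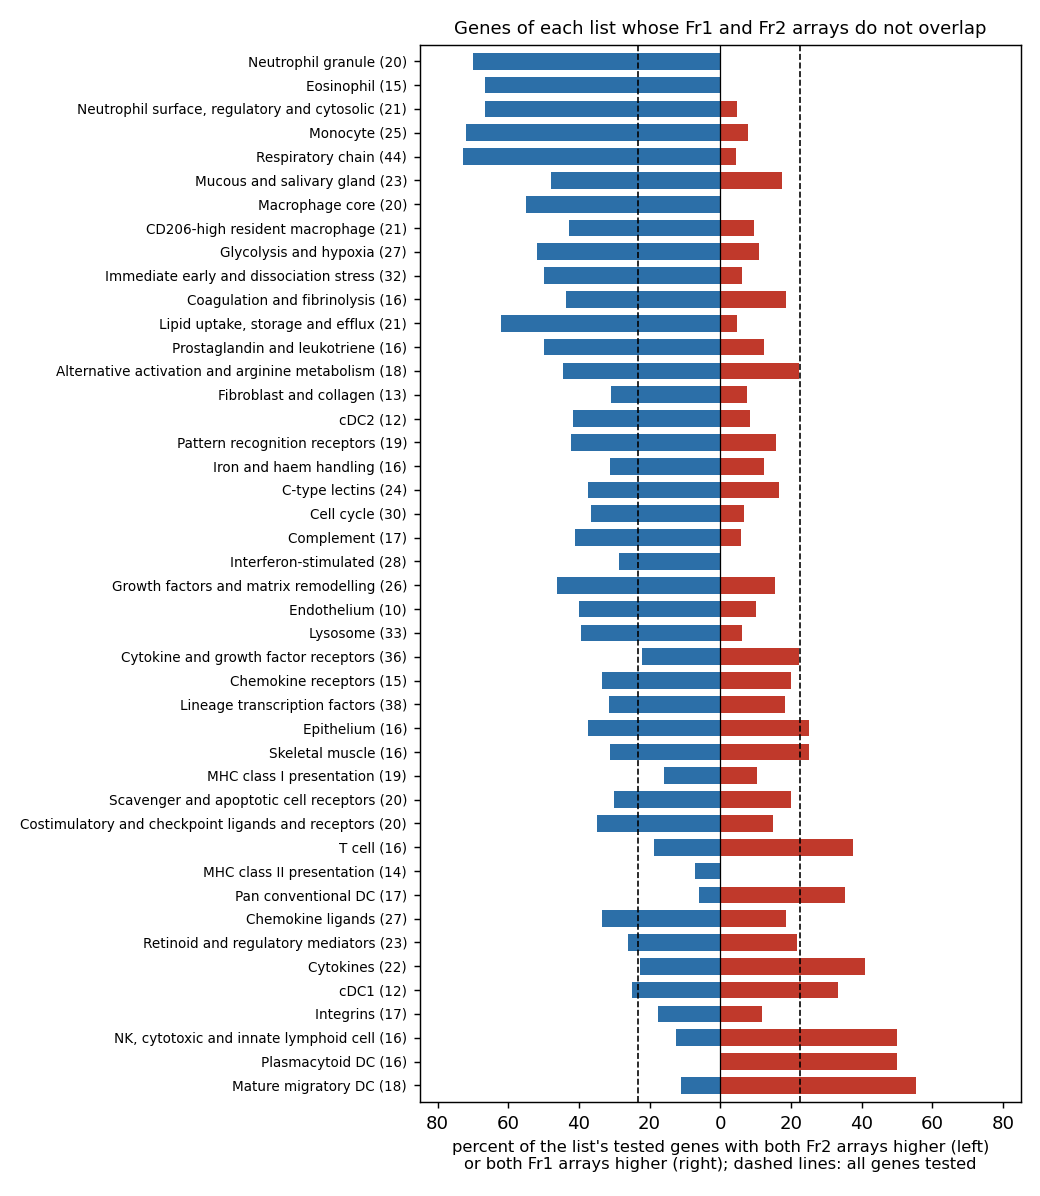
Percent of the tested genes of each list whose 2 Fr2 arrays both lay above the 2 Fr1 arrays (blue, left) or below them (red, right), for the lists with at least 10 tested genes, ordered by their median difference; the number tested is in brackets and the dashed lines give the 23.3% and 22.7% of all genes. Neutrophil, eosinophil, monocyte and respiratory chain lists reach furthest left, and mature migratory DC, plasmacytoid DC and cytotoxic lists furthest right.

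On the Fr1 side lay genes of plasmacytoid DCs, the cells known for producing type I interferon. Ccr9, the receptor for the gut chemokine CCL25 and a marker of plasmacytoid DCs and gut-homing lymphocytes, stood at 1.66 and 1.45 on the Fr1 arrays. It was not above background on either Fr2 array (−4.32 and −3.27) and was called, at least 18.0-fold higher in Fr1 (limma adjusted p = 0.0376). Spib, an Ets transcription factor of plasmacytoid DCs and B cells, stood at 3.06 and 0.69 against −3.23 and −4.67, not above background, at least 22.6-fold higher, but missed the threshold (0.0611). On the Fr3 arrays, Ccr9 and Spib were not above background. Of 16 tested genes of the list, 8 had both Fr1 arrays higher and 0 both Fr2 arrays, with a median difference of 0.67 (Fr1 minus Fr2) that was 0.17 with normexp and 0.19 with genes above background on all 4 arrays. Irf8 and Bcl11a, transcription factors shared by plasmacytoid and conventional DCs, stood at 1.67 and 0.88 against 0.10 and −0.94, and at 1.16 and −1.30 against −1.85 and −3.42. Siglech, a surface lectin of these cells, and Tcf4, their master regulator, had both Fr1 arrays higher, by 0.60 and 0.89 on average (limma adjusted p = 0.683 and 0.527), and 1 of 4 kept Tcf4 probes had the opposite sign. In Fr3, Siglech stood at 7.30 and 7.68 and Tcf4 at 2.22 and 2.10, no lower than in Fr1 for Tcf4. The summed level of the list was 220 and 268 in Fr1, 180 and 173 in Fr2 and 194 and 248 in Fr3. On every array the larger part of this sum was the signal of Siglech. These totals thus mainly repeat Siglech and are no measure of the remaining plasmacytoid DC genes.

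Genes of mature migratory DCs gave 10 of 18 towards Fr1 and 2 towards Fr2, with a median difference of 0.81 (Fr1 minus Fr2) and no call (0). Il12b, the shared chain of interleukins that drive T cell responses, stood at 1.1 and 1.03 in Fr1 and at −1.78 and −0.46 in Fr2 (limma adjusted p = 0.21). Ccl22, a chemokine of mature DCs, stood at −1.66 and −0.24 and was not above background in Fr2. Il4i1, an amino acid oxidase, stood at 1.21 and 1.85 against −0.78 and 0.02. The list's median was 0.31 with normexp.

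Of 17 tested genes shared by conventional DCs, 6 had both Fr1 arrays higher and 1 both Fr2 arrays, against 22.7% and 23.3% of all genes, and 10 overlapped. Beside Bcl11a, Kmo, an enzyme of tryptophan breakdown, was among the 6, at 1.67 and 1.69 against 1.08 and −0.44 (limma adjusted p = 0.423). The cDC1 list, of the cross-presenting subset, had 4 of 12 towards Fr1 and 3 towards Fr2, and the cDC2 list 1 and 5 of 12. The arrays of Flt3, the DC growth factor receptor, and of Zbtb46, a transcription factor that marks conventional DCs, overlapped between the fractions, at −1.54 and −0.84 against −1.36 and −0.56 and at 2.65 and 1.83 against 2.19 and 2.43. Among the cDC1 genes, Clec9a, a receptor for dead cells, stood at −0.89 and 0.03 against −4.71 and −1.57, and Itgae, the CD103 integrin, was above background in Fr1 alone. Xcr1, the cDC1 chemokine receptor, lay towards Fr2, at 0.03 and −2.17 against 1.16 and 0.85, and Batf3, a transcription factor of cDC1, was not above background on any array. Of the cDC2 genes, Sirpa stood at 2.84 and 2.11 against 4.44 and 4.01 and Cd209a, a DC-SIGN relative, at 3.40 and 2.61 against 5.06 and 4.22. With probes of over 30% T left out, another Sirpa probe gave a difference of 0.12 towards Fr1. Cd207, the langerin of Langerhans cells, stood at 0.18 and 0.79 against −2.11 and −2.05 (limma adjusted p = 0.123), while Epcam, carried by Langerhans cells and epithelium, overlapped. Class II presentation genes did not separate the fractions: 13 of 14 overlapped, and the list's median was 0.08 (Fr1 minus Fr2), with −0.46 without Fr2 replicate 2 and 0.48 without Fr2 replicate 1. It was also below 0 with normexp and without Fr1 replicate 2.

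Cytotoxic lymphocyte genes lay towards Fr1. Gzma, a granzyme of natural killer (NK) and T cells, stood at 3.48 and 2.97 on the Fr1 arrays and at −0.60 and 0.14 on the Fr2 arrays, a difference of 3.46 ± 0.60 (limma adjusted p = 0.0666). Gzmb was not above background in Fr2 and stood at 0.28 and −1.56 in Fr1. Il2rb, the receptor chain for interleukins 2 and 15, stood at 1.89 and 1.44 against −3.90 and −2.06 (0.0611), and Ifng, interferon gamma, at 2.63 and 1.00 against −1.28 and −4.98 (0.132). In 8 of 16 tested genes both Fr1 arrays were higher and in 2 both Fr2 arrays were, with a median of 0.61 (Fr1 minus Fr2) that was 0.27 with normexp, 0.29 with genes above background on all 4 arrays and 0.38 without Fr2 replicate 1. The summed level of the list was 56.9 and 50.2 in Fr1 against 28.8 and 36.4 in Fr2. Klrb1c and Prf1, the NK1.1 antigen and perforin, overlapped. T cell genes as a list did not lean to either fraction. Of 16 tested, 6 lay towards Fr1 and 3 towards Fr2, with a median of 0.01 (Fr1 minus Fr2). That median was below 0 with median centring and without Fr1 replicate 2. Towards Fr1 lay Icos at 1.06 and 0.39 against −1.88 and −1.47 and Cd8b1 at 0.75 and 2.11 against −0.71 and −0.37. Lck, another T cell marker, lay towards Fr2, at 0.61 and 0.97 against 1.20 and 1.26. Cd3e overlapped, and Cd3d and Cd3g, which define T cells, were each above background on 1 of the 4 arrays. Some activated lymphocytes carry CD11c, and the part of lymphocyte RNA in the Fr1 values was not tested.

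**Figure D4:**
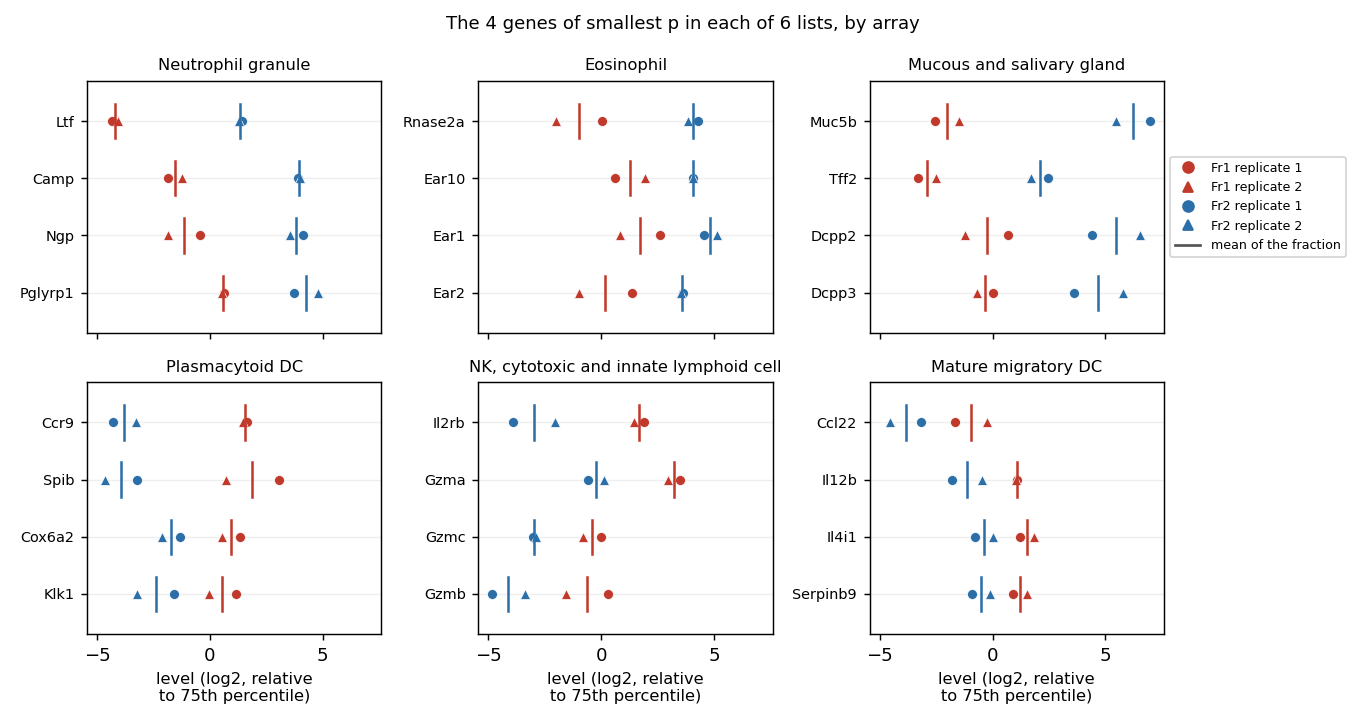
Level of the 4 genes of smallest p in each of 6 lists, by array, in log2 units relative to the array's 75th percentile; red is Fr1, blue Fr2, circles replicate 1, triangles replicate 2 and vertical bars the mean. The upper lists lie towards Fr2 and the lower lists towards Fr1, and only Ltf, Camp, Muc5b, Tff2 and Ccr9 among these 24 genes had an adjusted p under 0.05.

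Cytokine genes were mixed, with 9 of 22 towards Fr1 and 5 towards Fr2. Beside Ifng and Il12b, Ifnb1, interferon beta, stood at −0.15 and −0.02 in Fr1 and was not above background in Fr2, at least 5.79-fold higher (limma adjusted p = 0.0816). Osm, oncostatin M, stood at 2.96 and 3.00 in Fr1 against 4.89 and 5.43 in Fr2, and Il18 at −1.05 and −2.07 against 0.92 and 0.44. Interferon-stimulated genes gave 8 of 28 towards Fr2 and 0 towards Fr1, and 20 overlapped, while the interferon genes Ifnb1 and Ifng lay towards Fr1.

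Among receptors, C-type lectins gave 9 of 24 towards Fr2 and 4 towards Fr1. Fcgr3, the low-affinity IgG receptor CD16, stood at 2.04 and 1.69 against 3.91 and 2.89. Il1rl1, the receptor for interleukin 33 that eosinophils, mast cells and type 2 lymphocytes carry, stood at −0.60 and −1.25 against 1.91 and 2.85 (limma adjusted p = 0.0831). Clec7a, the beta-glucan receptor, lay towards Fr2 with this probe (1.83 and 2.60 against 3.37 and 4.36), but by 0.62 towards Fr1 with a probe of lower T content. Tlr13, a sensor of bacterial ribosomal RNA, stood at −1.54 and −0.66 against 1.65 and 0.67, with 1 of its 2 kept probes of the opposite sign. Among chemokine ligands Ccl6, made by myeloid cells, stood at 6.24 and 6.33 against 8.46 and 8.61 (0.147), and 9 of 27 lay towards Fr2 and 5 towards Fr1. Retinoid genes gave 6 of 23 and 5 of 23, with Aldh1a2, which makes retinoic acid in mucosal DCs, not above background in Fr1 and at −0.71 and −0.15 in Fr2.

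Genes of tissue cells were examined because digestion can release them. Calml3, a calmodulin-like protein of stratified epithelium, was not above background in Fr1 and stood at 1.81 and 1.02 in Fr2, at least 10.2-fold higher (limma adjusted p = 0.0326). Of 16 tested epithelial genes, out of 38 on the array, 6 lay towards Fr2 and 4 towards Fr1. Krt14, the basal keratin, was not above background in Fr1 and stood at −0.93 and −1.75 in Fr2, while its partner Krt5 was not above background on any array. The summed level of this list was 204 and 259 in Fr1 and 250 and 233 in Fr2. Most of each sum came from Trp63 alone, which overlapped at 7.53 and 7.91 in Fr1 against 7.70 and 7.60 in Fr2. The sum therefore says little about the other epithelial genes. Collagen and fibroblast genes gave 4 of 13 towards Fr2, among them Dcn, decorin, which was not above background in Fr1, and 1 towards Fr1. Col4a1, of basement membrane collagen, was called: it was not above background in Fr1 and stood at 0.35 and 1.23 in Fr2, at least 6.60-fold higher (0.0448). Skeletal muscle genes gave 5 of 16 and 4 of 16, and Ckm, muscle creatine kinase, was not above background on any array of either fraction. The muscle genes Acta1 and Myh4 were above background on all 4 arrays. Cpa3 and Fcer1a of mast cells, Cd79a of B cells and Alas2 of red cell precursors were not above background on any array of either fraction. Other markers of the same cell types were above background on all 4 arrays. These were Kit of mast cells, Hba-a1 of red cells and Ms4a1 of B cells. Ms4a1 stood at 3.67 and 4.43 in Fr1 against 2.59 and 4.70 in Fr2.

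The other called genes belong to no list, like Dmbt1 and Col4a1 above. Cyp2f2, a cytochrome P450 of airway secretory cells, was not above background in Fr1 (−4.23 and −3.47) and stood at 3.64 and 3.72 in Fr2, at least 48.8-fold higher (limma adjusted p = 0.0265). On the Fr3 arrays it stood at 0.94 and 3.65. Hey1, a Notch target, Chn2, a chimaerin that acts on Rac, and Crkl, an adaptor of the CRK family, were not above background in Fr1. They were at least 8.19-fold, 7.85-fold and 5.19-fold higher in Fr2. Amer1, a regulator of beta-catenin, and Mrm1, a mitochondrial ribosomal RNA methyltransferase, were at least 10.4-fold and 9.40-fold higher. The remaining 3 Fr2 calls were the non-coding RNA 1600010M07Rik, a probe on chromosome 16 that is named by its position alone, and Gprasp1, a receptor-associated sorting protein. Gprasp1 stood at −2.77 and −2.73 against 3.33 and 1.87 (0.0448), but its other probe differed by 1.1 in the opposite direction.

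Towards Fr1 the remaining calls were Olfr164, an olfactory receptor gene, and Krtap28-10, a hair keratin-associated protein gene. Olfr164 stood at 0.20 and 0.42 and was not above background in Fr2, at least 7.60-fold higher (limma adjusted p = 0.0326). Krtap28-10 stood at 1.52 and 0.12 against no signal above background, at least 10.9-fold higher (0.0448). Each was read by 1 probe.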

How the data were processed

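Per the file headers, the authors read 1-colour arrays with Agilent Feature Extraction and deposited each spot's processed signal as an intensity, with flags for spots well above background. The authors also deposited a table of normalized log2 values of the same arrays, which was used as an alternative and matched the values computed here with r of at least 0.9999. From the intensity, the log2 value minus the 75th percentile of each array over non-control spots was computed, spots of a probe were averaged, probes well above background on both arrays of either fraction were kept, and the brightest probe stood for a gene. Of 59305 non-control spots, none was saturated (0). Symbols were updated from RefSeq where the accession or name matched.

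The fit used limma 3.58.1 in R 4.3.3 (lmFit and eBayes) on the 4 arrays, without a block, with Benjamini-Hochberg adjustment over 19737 genes. Each group has 2 arrays, which limits the precision. The p-values rest on the spread between arrays of a fraction and on the variance pooled across genes. The pooled part had 5.90 degrees of freedom, against 2 from the arrays of a gene. Arrays of a fraction shared a slide, so variation between slides does not enter that spread. On simulated data of that size the test recovered 0%, 56.7% and 98.5% of genes changed by 2, 4 and 8 on the log2 scale. Named genes are the sort markers, the called genes, the 15 of largest non-overlapping difference in each direction and the 4 of smallest p in each list; genes used to check the labelled cell types are named as well. The members, lists and motifs were chosen with earlier results of these data known. Alternatives covered the filter, background correction, normalization, probe choice, T content, variance trend, replicate block, inclusion of Fr3 and leaving out each array. Arrays of the same replicate number were not shown to be paired, as the labels name only independent experiments.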

Additional observations from a re-analysis of the deposited data

How the results depend on the processing

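Against 21 calls, there were 13 with genes above background on all 4 arrays, where 2 of the 21 were tested and 1 was still called. There were 294 with an intensity trend and 90 with median centring, each with all 21, and 8 without probes over 30% T, all among the 13 of the 21 tested there. There were 0 calls (limma, adjusted p under 0.05) with all 6 arrays, no filter, normexp background or quantile normalization, where all 21 kept their direction and an unadjusted p under 0.05, but with normexp at much smaller differences, such as −0.62 for Crkl and −0.88 for Col4a1. With the replicate number as a block, calls fell to 0 and the smallest adjusted p was 0.129. Leaving out 1 array gave 0 to 370 calls, the remaining array being assumed to vary like the others. Genes higher in Fr1 at an unadjusted p under 0.05 numbered 652 with all 6 arrays, 2046 without a filter, 670 with normexp and 646 without T-rich probes, and those higher in Fr2 1054 with the 4-array filter. The share of such genes that was higher in Fr2 was 61.3% in the main fit, 47.1% without a filter and 74.6% with normexp, and the median over all genes was 0.30 without a filter. Genes without overlap and higher in Fr1 numbered 12721 without a filter and 2925 without T-rich probes, and those higher in Fr2 3053 without T-rich probes. Leaving out 1 array gave 6703 to 7940 and 6778 to 7514. The cause of these changes was not tested.

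Of 611 list medians under alternatives, 62 moved by more than the spread between replicates, 14 of them with normexp. Of 2906 values of named genes under alternatives, 29 reversed. As Fr1 minus Fr2, Gprasp1 gave 1.1 with the 4-array filter and without T-rich probes. With the mean of probes Slc25a37 gave 0.18, B2m 0.079, Itgax −0.035, Cr2 −0.39 and Hba-a1 −0.22. Without T-rich probes Slc25a37 gave 1.36, B2m 1.03, Sirpa 0.12, Clec7a 0.62 and Mbp 0.71. Without a filter Strada gave −0.29, with normexp Eif2s3y 0.028 and Slc4a1 0.044, and with quantile normalization Slc4a1 0.013. With 1 array left out the range was −2.07 to 0.19 for Tpsb2, −1.68 to 0.024 for Hdc, −1.76 to 0.70 for Eif2s3y, −0.89 to 0.18 for Kdm5d and −0.61 to 0.60 for Slc4a1. It was −0.25 to 1.33 for Itgax, −0.015 to 1.12 for H2-Ob, −0.051 to 1.20 for Prx, −0.092 to 1.51 for Cr2, −0.62 to 2.07 for Xist, −0.46 to 2.10 for Ciita and −0.91 to 2.61 for Hba-a1.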

Other observations

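Olfactory receptor genes were counted after Olfr164 had been called, so the choice followed the data. Of 310 tested, 116 had both Fr1 arrays higher and 21 both Fr2 arrays, against 22.7% and 23.3% of all genes. Their median difference was 0.45 (Fr1 minus Fr2). Medians of the plasmacytoid DC, cytotoxic and mature migratory DC lists, also towards Fr1, were 0.67, 0.61 and 0.81. Whether these lists and the olfactory receptor genes share a source of the shift was not tested. The median level of the olfactory receptor genes was 0.21 and −0.18 on the Fr1 arrays and −0.83 and −0.46 on the Fr2 arrays.

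Between the Fr1 replicates, the median difference (replicate 1 minus replicate 2) was −0.46 for genes whose probe held at most 20% T and 0.95 for those over 40% T.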
